A study of Mus musculus with 2 samples.

Results

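The immunoglobulin variable genes of the kappa light chain (Igkv) and the heavy chain (Ighv) were followed in B cells of the mouse colon. The set holds every Igkv or Ighv symbol with at least 5 raw UMIs (unique molecular identifiers, each standing for 1 captured transcript) over both libraries, counted in the cells of the deposited log tables. This gave 78 genes, 34 Igkv and 44 Ighv, of the 345 Igkv and Ighv symbols among 31053 genes. Female C57BL/6J mice gave the B cells, which flow cytometry isolated from the lamina propria of the colon, the tissue under the gut epithelium. Mice of the day 0 group were untreated. Mice of the day 14 group drank 2% dextran sulfate sodium (DSS), a polymer that injures the epithelium and causes colitis, for 7 days and then recovered for 7 days. The treatment tag names DSS for both samples; that day 0 was untreated comes from the protocols and the series design. Neither the age nor the number of mice behind a library was given in the sources used here.

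Each B cell builds its receptor by joining 1 variable gene segment to shorter segments, with a diversity segment in between for the heavy chain. The variable segment encodes most of the antigen-binding domain, and its end opens the third complementarity-determining region (CDR3), the most variable loop of the binding site. A B cell as a rule expresses 1 heavy chain and 1 light chain, and its clonal descendants share both. Plasma cells transcribe the joined genes at very high levels to secrete antibody, in the gut mainly as IgA, whose heavy chain constant region is encoded by Igha.

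The last 90 bases of 12 variable segments are printed because these genes carried the differences between the days or held most UMIs of a plasma cell. They come from GENCODE M21 transcripts (build mm10) and run 5′ to 3′ in the direction of transcription. Capitals run from the cysteine codon that precedes CDR3 to the end of the segment, found as a tyrosine codon, a tyrosine or phenylalanine codon and a cysteine codon in the last 45 bases. This triplet was found in 77 of the 78 genes. The first 6 genes listed were mostly seen at day 0, and the last 5 mostly at day 14. Of the 171 UMIs of Igkv6-15, 164 lay in 1 cell of day 0.

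Igkv4-72: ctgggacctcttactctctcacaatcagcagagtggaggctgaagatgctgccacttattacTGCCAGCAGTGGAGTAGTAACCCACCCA
Igkv4-59: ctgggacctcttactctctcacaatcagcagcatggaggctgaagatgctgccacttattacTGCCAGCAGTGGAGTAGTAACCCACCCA
Igkv4-57: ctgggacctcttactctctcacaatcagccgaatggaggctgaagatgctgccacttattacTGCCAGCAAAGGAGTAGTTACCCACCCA
Igkv1-117: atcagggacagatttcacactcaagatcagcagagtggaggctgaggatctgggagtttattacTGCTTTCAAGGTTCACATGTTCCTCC
Ighv1-64: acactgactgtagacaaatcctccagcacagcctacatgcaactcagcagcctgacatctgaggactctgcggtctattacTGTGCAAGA
Ighv1-39: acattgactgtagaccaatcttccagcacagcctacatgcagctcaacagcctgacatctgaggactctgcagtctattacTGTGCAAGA
Igkv6-15: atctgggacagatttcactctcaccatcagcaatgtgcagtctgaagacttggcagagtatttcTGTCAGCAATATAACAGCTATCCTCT
Igkv1-110: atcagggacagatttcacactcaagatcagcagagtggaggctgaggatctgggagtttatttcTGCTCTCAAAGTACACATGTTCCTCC
Igkv12-44: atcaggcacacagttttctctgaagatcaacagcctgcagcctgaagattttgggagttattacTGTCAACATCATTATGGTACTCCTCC
Igkv12-46: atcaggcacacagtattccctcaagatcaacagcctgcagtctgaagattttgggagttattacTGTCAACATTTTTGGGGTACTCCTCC
Ighv3-6: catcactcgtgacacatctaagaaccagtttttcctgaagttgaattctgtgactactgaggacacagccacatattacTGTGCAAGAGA
Ighv2-5: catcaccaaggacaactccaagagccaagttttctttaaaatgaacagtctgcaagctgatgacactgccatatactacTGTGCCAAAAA

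All 34 Igkv genes lie on chromosome 6, between positions 67555497 and 70704177, and all 44 Ighv genes on chromosome 12, between 113588267 and 115981134. Examples are Igkv4-72 at chr6:69226854-69227433, Igkv1-110 at chr6:68270485-68271267, Ighv1-64 at chr12:115507545-115508031 and Ighv3-6 at chr12:114288152-114288582. GENCODE M21 annotates 76 as variable gene segments and 2, Igkv3-11 and Ighv1-70, as pseudogenes. The sequences show how alike some of the genes are. Igkv4-72 and Igkv4-59 differ at 2 of the last 90 bases and share 95.4% of 368 aligned bases. Igkv1-110 and Igkv1-117 differ at 4 of the last 90 bases and share 97.5% of 401 aligned bases, although the first was seen mostly at day 14 and the second mostly at day 0. Of all stretches of 25 bases in a gene, a median of 57.3% also occur in another annotated Igkv or Ighv gene, and this share passed 50% in 50 of the 78 genes. Reads from such genes could be split between them or lost in the counting, so single gene values are uncertain, those of Igkv4-59 (90.7% shared) and Ighv1-72 (99.7% shared) in particular.

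The day 0 library held 3290 cells and the day 14 library 4692, with 8690102 and 12317052 UMIs. Each group is 1 library, so no difference has a replicate check and there was no test; 95% intervals in parentheses cover counting error only. Cells were divided at 20% immunoglobulin UMIs, which left 3266 and 4665 cells below ("low cells") and 24 and 27 cells at or above ("high cells") at day 0 and day 14. Only 2 and 3 cells lay between 15% and 25%. Over the low cells of each day all 10 mature B cell markers were detected, with a UMI of them in all 3266 cells at day 0 and 4663 of 4665 at day 14. Single low cells held up to 510 and 495 plasma cell marker UMIs at day 0 and day 14. At day 14, 21 low cells held UMIs of 6 myeloid markers, with up to 205 in a cell. In the high cells all 10 plasma cell markers were detected, with a median of 1484 UMIs of these markers per cell at day 0 and 858 at day 14, beside 1 in low cells on both days. Of the mature B cell markers, 6 of 10 were detected in high cells at day 0 (Bank1, Fcer2a, Ighd and Cr2 at 0) and 8 of 10 at day 14 (Cd22 and Fcer2a at 0). Their summed level was 5077 in 1000000 UMIs of the high cells at day 0 and 4051 at day 14, against 32201 and 30823 in low cells. Of 8 T cell markers, Cd3d, Cd3e, Cd3g, Trac, Trbc1, Trbc2 and Cd8a were at 0 in the high cells of both days. The remaining marker, Cd4, was found in 3 high cells on each day, with at most 1 UMI in a cell. The libraries shared 17 cell barcodes, none of them a high cell and none with the same variable gene in both.

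Variable gene UMIs were rare. The 345 Igkv and Ighv symbols held 1920 UMIs, 1016 at day 0 and 904 at day 14, of which the 78 genes held 1778. The median gene had 14 UMIs and the highest, Igkv6-15, had 171. At the limit of the rule, Ighv1-7, Ighv1-54, Ighv8-12 and Ighv1-70 entered with 5 UMIs, and 7 genes with 4 UMIs stayed out. High cells held 41.0% of the variable gene UMIs at day 0 and 50.3% at day 14. Within the immunoglobulin UMIs of high cells, Igkv and Ighv genes made up 0.174% at day 0 and 0.235% at day 14, the rest being almost all from constant and lambda genes. In low cells the same shares were 0.639% and 0.381%.

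In these libraries, low cells held variable gene UMIs less often at day 14 than at day 0, in both families. An Igkv UMI was found in 290 of 3266 low cells at day 0 (8.88%, 7.93 to 9.91) and in 187 of 4665 at day 14 (4.01%, 3.46 to 4.61). As a rate this was 38.8 Igkv UMIs in 1000000 UMIs of the low cells (the rate used below) at day 0 (34.7 to 43.3) and 16.9 at day 14 (14.6 to 19.4). An Ighv UMI was found in 257 low cells at day 0 (7.87%, 6.97 to 8.85) and in 237 at day 14 (5.08%, 4.47 to 5.75), rates of 33.6 and 20.9. Depth was close on the 2 days, at medians of 2274 and 2237 UMIs per low cell. After thinning each cell to 1000 UMIs, without the 34 and 63 low cells below that depth, the shares were 3.47% and 1.80% for Igkv and 3.28% and 2.41% for Ighv. Of the low cell entries of 1 gene in 1 cell, between 96.4% and 97.4% were exactly 1 UMI.

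T cells make no immunoglobulin, and T cell barcodes among those left out of the log tables also held variable gene UMIs. At day 0, 58 such barcodes (median 3211 UMIs) held 4 Igkv UMIs in 3 barcodes (5.17%, 1.08 to 14.4), a rate of 21.4 (5.82 to 54.7). At day 14, 44 barcodes (median 2930 UMIs) held 3 Igkv UMIs in 3 barcodes (6.82%, 1.43 to 18.7), a rate of 21.7 (4.48 to 63.5). The Ighv rate was 16.0 (3.31 to 46.8) at day 0 and 14.5 (1.76 to 52.3) at day 14. These intervals hold the low cell rates of both families and both days, so variable gene UMIs in low cells were not distinguishable from background at this depth. The T cell barcodes held only 4 and 3 Igkv UMIs and 3 and 2 Ighv UMIs, too few to separate a moderately higher low cell rate. Whether low cells expressed these genes can therefore not be decided here, and their UMIs are not read as expression. The T cell barcodes at day 0 held Igkv4-72, Igkv4-57, Igkv1-135, Igkv4-51, Ighv1-64, Ighv1-69 and Ighv5-6, and those at day 14 held Igkv12-46, Igkv16-104, Igkv1-135, Ighv3-6 and Ighv1-82, each with 1 UMI. Of the transcripts that plasma cells hold at high levels, Igha and Jchain were also found in fewer low cells at day 14, while Mzb1 and Xbp1 lay within 1.5-fold. Igha was found in 36.8% of low cells and 34.5% of T cell barcodes at day 0, and in 13.5% and 9.09% at day 14. These shares are not matched for depth, and as rates the 2 sets lay apart. Igha stood at 370 (357 to 384) in low cells and 155 (104 to 222) in T cell barcodes at day 0. At day 14 it stood at 242 (233 to 251) and 29.0 (7.90 to 74.2). Single low cells held much of these sums, 702 of 3064 Igha UMIs in 1 cell at day 0 and 1204 of 2875 in 1 at day 14. Jchain, which links secreted IgA units, was found in 13.7% of low cells and 12.1% of T cell barcodes at day 0, and in 4.54% and 9.09% at day 14. In T cell barcodes Jchain rests on 7 and 4 UMIs, and the intervals overlap (4.99 to 23.3 and 2.53 to 21.7). Igkc and Ighd, which mature B cells transcribe, differed between the cell types: at day 0 they were found in 98.4% and 60.01% of low cells and in 67.2% and 8.62% of T cell barcodes. The part of free plasma cell RNA in the difference between the days was not tested.

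**Figure D1:**
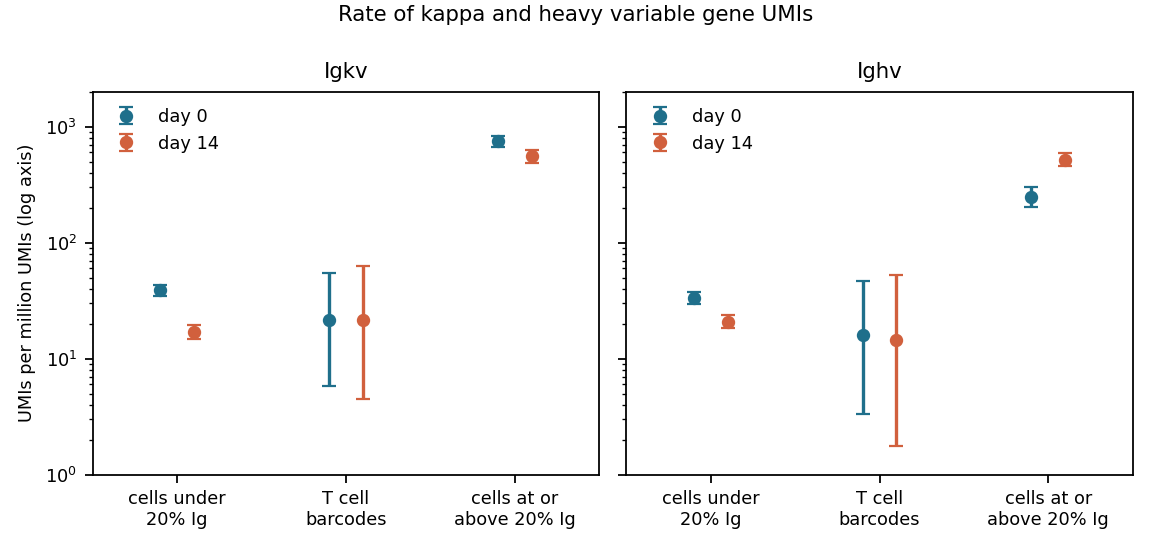
Igkv (left) and Ighv (right) UMIs in 1000000 UMIs, on a log axis, in low cells, T cell barcodes and high cells; points are the 1 library of each day and bars are exact 95% Poisson intervals, which cover counting error only. The wide intervals of the T cell barcodes hold the low cell rates of 38.8 and 16.9 (Igkv) and 33.6 and 20.9 (Ighv), and the high cells lie above all of them.

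High cells carried variable gene UMIs at rates far above both. Igkv stood at 746 in 1000000 UMIs at day 0 and 555 at day 14, and Ighv at 248 and 520. A few cells set these sums. A single day 0 cell held 174 of the 313 Igkv UMIs, and a single day 14 cell held 138 of the 220 Ighv UMIs. Without the cell with the most UMIs, Igkv stood at 352 (296 to 415) and 474 (409 to 547), and Ighv at 229 (184 to 281) and 202 (161 to 251). So the direction between the days turned in both families when 1 cell per library and family was left out. The median high cell held 4 Igkv and 4 Ighv UMIs at day 0, and 7 Igkv and 1 Ighv UMIs at day 14.

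Where a high cell held enough UMIs of a family, 1 gene led them. With at least 3 UMIs of the family and over 50% of them from 1 gene, an Igkv gene was assigned to 15 of 24 high cells at day 0 (62.5%, 40.6 to 81.2) and to 18 of 27 at day 14 (66.7%, 46.0 to 83.5). An Ighv gene was assigned to 18 of 24 (75.0%, 53.3 to 90.2) and to 11 of 27 (40.7%, 22.4 to 61.2). High cells of day 0 were deeper, with medians of 18973.5 UMIs and 57.2% immunoglobulin UMIs, against 14833 and 40.6% at day 14. Neither these assignments nor the gene numbers and pairs below are matched for this. After thinning to 1000 UMIs, 29.2% and 25.9% of high cells held an Ighv UMI. All high cells with at least 3 UMIs of a family were assigned. With no UMI minimum, 19 and 23 high cells had a top Igkv gene over 50%, and 19 and 19 a top Ighv gene. In low cells the rule with 3 UMIs assigned 1 and 2 cells for Igkv and 2 and 2 for Ighv. With no minimum, 272 of 290 and 183 of 187 low cells with an Igkv UMI passed, as did 247 of 257 and 235 of 237 with an Ighv UMI, nearly all of them on 1 UMI.

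At day 0 the high cells used many Igkv genes, none in more than 4 cells. The 15 assigned cells used 12 genes, 10 of them in 1 cell each. Igkv6-15 had the most UMIs, 164, all in 1 IgA cell whose next Igkv gene was Igkv4-57 with 10 UMIs and whose heavy gene was Ighv6-6 with 6. Igkv4-59 was the top gene of 4 cells with 32, 5, 4 and 1 UMIs, and these cells had 4 different heavy genes, Ighv1-18, Ighv14-2, Ighv1-64 and Ighv14-3. Igkv2-109 was the top gene of 3 cells with 6, 3 and 1 UMIs. Other cells were led by Igkv6-25 (16 UMIs), Igkv1-117 (11), Igkv5-43 (11) and Igkv1-135 (10). Igkv4-72, the gene most often seen in low cells of day 0, was found in 3 high cells with 5, 4 and 1 UMIs and led 1 of them. Of the 24 cells, 22 had Igha as the leading heavy constant gene, 1 Ighm and 1 Ighg2b.

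The heavy genes of day 0 were as spread. The 18 assigned cells used 14 genes. Ighv1-39 led 3 cells with 7, 6 and 2 UMIs, Ighv1-64 led 2 with 8 and 7, and Ighv1-18 led 2 with 8 and 7. Ighv1-84 held 13 UMIs in 1 cell, the one led by Igkv1-135. No Ighv gene of day 0 passed 13 UMIs in a cell.

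At day 14 one kappa gene recurred. Igkv1-110 led 8 of the 18 assigned cells (44.4%, 21.5 to 69.2), with 15, 12, 8, 8, 8, 7, 6 and 5 UMIs, and was found in no high cell of day 0. For 0 of 15 assigned day 0 cells the interval reaches 21.8%, so the intervals of the 2 days overlap slightly. These 8 cells did not share 1 heavy gene: Ighv3-6 led 2 (8 UMIs each), Ighv6-3 led 2 (1 UMI each), Ighv1-80 and Ighv1-47 led 1 each (1 and 3 UMIs), and 2 had no Ighv UMI. Nor did they share 1 constant gene, with 5 led by Igha and 1 each by Ighm, Ighg2b and Ighg1. Other kappa genes of day 14 were high in 1 or 2 cells: Igkv12-44 with 46 UMIs in the 1 Ighg3 cell, Igkv6-20 with 24, Igkv12-46 with 22 and 2, Igkv12-41 with 14 and 3, and Igkv3-11, annotated as a pseudogene, with 10.

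Ighv3-6 was the recurrent heavy gene of day 14. It led 4 of 11 assigned cells (36.4%, 10.9 to 69.2) with 18, 8, 8 and 3 UMIs, and none of the 18 assigned cells at day 0. The interval of day 0 reaches 18.5% and overlaps that of day 14. The largest heavy value of either day was Ighv2-5 with 138 UMIs in 1 IgA cell, in which no Igkv UMI was found although Igkc led its light constant genes. Ighv10-3 held 14 UMIs in a cell led by Iglc1. IgA cells were 20 of 27, with 2 each led by Ighm, Ighg1 and Ighg2b and 1 by Ighg3. In 1 of the 20, Igha led with only 8 UMIs, 66.7% of the cell's heavy constant UMIs, so its class is uncertain.

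**Figure D2:**
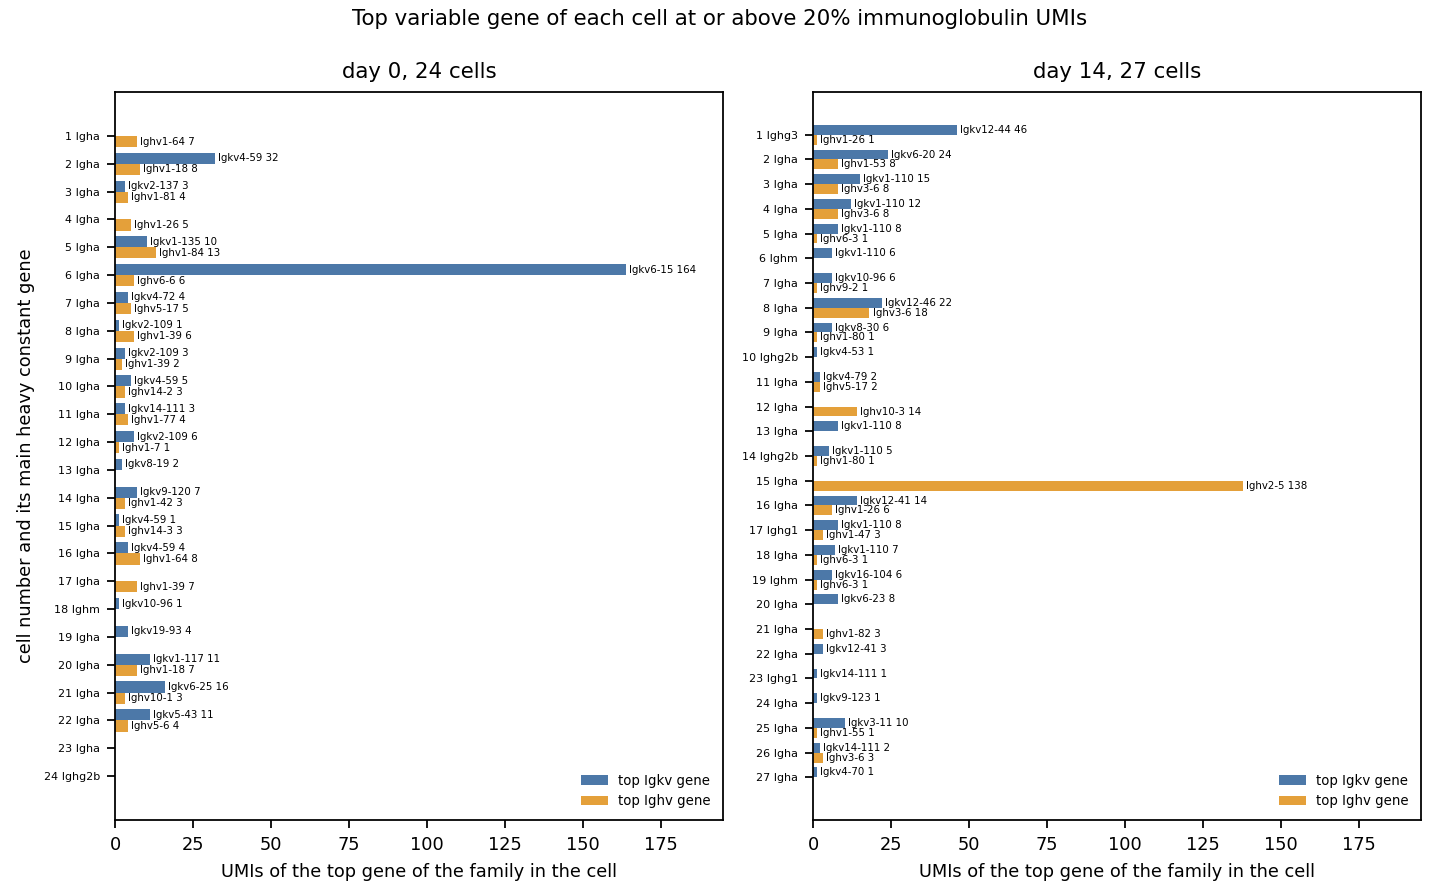
UMIs of the top Igkv gene (blue) and top Ighv gene (orange) in each high cell of day 0 (left) and day 14 (right), ordered by falling immunoglobulin share and marked with the leading heavy constant gene. Igkv6-15 with 164 UMIs and Ighv2-5 with 138 stand far above the rest, and Igkv1-110 recurs in 8 cells of day 14.

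Fewer genes accounted for the assigned high cells at day 14. The effective number of genes (Simpson's, the number of equally used genes that would give the same chance that 2 cells share a gene) was 26.3 for Igkv and 30.6 for Ighv among assigned high cells of day 0. At day 14 it was 5.28 for Igkv and 9.17 for Ighv. These numbers rest on few pairs of cells, and the values of day 0 exceed the 12 and 14 genes seen because so few cells shared one. At equal numbers of assigned cells, 15 cells gave 12 Igkv genes at day 0 and a mean of 8.65 at day 14, and 11 cells gave a mean of 9.40 Ighv genes at day 0 and 8 at day 14. In low cells, where the UMIs were not distinguishable from background, the effective number over all cells with a top gene was 25.7 and 19.9 for Igkv and 35.3 and 50.5 for Ighv.

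Of the 33 genes seen in high cells at day 0 and the 25 seen at day 14, 8 were seen on both days (24.2% and 32.0%): Ighv1-26, Ighv5-17, Ighv6-3, Igkv10-96, Igkv14-111, Igkv2-109, Igkv3-1 and Igkv4-57. In low cells 67 genes of the set were seen on both days, of 73 and 70. A gene enters the set with at least 5 UMIs over both days, which favours this overlap. Without that minimum, low cells held 52 and 50 Igkv genes and 62 and 70 Ighv genes at day 0 and day 14, whose overlap was not counted. Among genes with 5 to 9 UMIs over the high cells of both days, 4 of 10 variable genes were seen on both days, beside 94.3% of 1951 genes other than immunoglobulin genes. With 10 to 19 UMIs these were 3 of 15 and 99.3% of 1508. The number of cells that such UMIs lay in was not matched.

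Heavy and kappa pairs could be read in 13 of 24 high cells at day 0 (54.2%, 32.8 to 74.4) and in 6 of 27 at day 14 (22.2%, 8.62 to 42.3), with 3 UMIs in each family. The 13 cells of day 0 held 13 different pairs. At day 14 there were 5 pairs, and Ighv3-6 with Igkv1-110 was held by 2 IgA cells. With no UMI minimum, Ighv1-39 with Igkv2-109 was held by 2 IgA cells of day 0, and Ighv6-3 with Igkv1-110 by 2 further IgA cells of day 14, each with only 1 or 2 UMIs of the leading gene in 1 family. The files hold no joined sequences, so whether such cells are of 1 clone was not tested. In low cells no cell was assigned in both families with 3 UMIs, and 18 cells of day 0 and 11 of day 14 were with no minimum, none sharing a pair with another low cell of its day.

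Some cells held a second Igkv gene. Among high and low cells assigned in Igkv, 3 of 16 had one with at least 3 UMIs at day 0 and 1 of 20 at day 14. Only cells with at least 7 UMIs of the family can show a second gene at 3 UMIs beside a top gene over 50%. These were 8 cells at day 0, of which 3 showed one (37.5%, 8.52 to 75.5), and 14 at day 14, of which 1 did (7.14%, 0.181 to 33.9). The 3 cells of day 0 paired Igkv6-15 with Igkv4-57, Igkv2-109 with Igkv4-72 and Igkv6-25 with Igkv3-1, and the cell of day 14 paired Igkv3-11 with Igkv4-57. No second Ighv gene reached 3 UMIs in the 7 cells of day 0 and 6 of day 14 able to show one, with intervals up to 41.0% and 45.9%. Lambda variable genes were seen in most of these cells: 13 of 16 (81.3%) and 15 of 20 (75.0%) kappa-assigned cells also held at least 3 UMIs of Iglv genes. The median high cell held 10 and 16 Iglv UMIs, more than Igkv UMIs, although Igkc led the light constant genes in 23 of 24 and 24 of 27 high cells. Of the high cells led by Igkc with at least 3 Iglv UMIs, 17 of 17 and 18 of 20 had over 20 times as many Igkc as Iglc UMIs. The 4 high cells led by Iglc1, 1 of day 0 and 3 of day 14, held 0, 0, 0 and 1 Igkv UMIs. They held 5, 1, 12 and 0 Iglv UMIs, fewer than the median high cell of their day. Iglv UMIs thus did not mark the cells led by a lambda constant gene and are not read as a second chain.

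In low cells, UMI numbers of single genes of the set differed between the days, and several Igkv4 genes were lower at day 14. The single genes named for low cells were picked by use or by difference between the days in these same UMIs. Igkv4-72 had 34 UMIs at day 0, in 34 different cells, and 1 at day 14. This was 4.30 against 0.0879 in 1000000 UMIs other than immunoglobulin and mitochondrial ones (CPM), a ratio of day 14 to day 0 of 0.0205 (0.000504 to 0.122). Igkv4-59 had 17 and 3 UMIs (ratio 0.123, 0.0231 to 0.425). Igkv4-57 had 19 UMIs at day 0 and none at day 14, at least 9.10-fold lower against a floor of 3 counts per library. Igkv1-135 had 16 and 1 (ratio 0.0435, 0.00104 to 0.280), and Igkv5-43 12 and none, at least 5.75-fold lower. None of these 5 genes had more than 1 UMI in a low cell.

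Igkv12-44 went the other way, with 12 UMIs in 10 low cells at day 0 and 27 in 26 at day 14. This was 1.52 and 2.37 CPM, a ratio of 1.57 whose interval (0.767 to 3.39) includes 1. Igkv1-110 had 10 and 21 UMIs (ratio 1.46, 0.659 to 3.48), Igkv12-46 had 5 and 13 (1.81, 0.606 to 6.48) and Igkv17-127 had 2 and 12 (4.18, 0.930 to 38.4). These 4 intervals include equal levels. As a share of Igkv UMIs, whose sum was itself lower at day 14, the same ratios were 3.59 (Igkv12-44), 3.35 (Igkv1-110), 4.15 (Igkv12-46) and 9.58 (Igkv17-127). Counted over low cells with a top Igkv gene, Igkv12-44 led 9 of 272 at day 0 and 25 of 183 at day 14 (odds ratio 4.61, 2.02 to 11.5), and Igkv1-110 led 9 and 20 (3.58, 1.51 to 9.14). Igkv19-93 had 11 and 14 UMIs (ratio 0.886, 0.374 to 2.16) and Igkv12-89 had 11 and 11 (0.696, 0.274 to 1.77).

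Heavy genes also had UMI numbers that differed by day. Ighv1-64 had 24 UMIs in 20 low cells at day 0 and 3 in 3 cells at day 14 (ratio 0.0870, 0.0168 to 0.287). Of the 24, 5 lay in 1 cell with 17.8% immunoglobulin UMIs and 246 plasma cell marker UMIs, just under the division. Ighv1-39 had 15 and 2 UMIs (ratio 0.0928, 0.0103 to 0.399), Ighv1-84 had 11 and 1 (0.0633, 0.00147 to 0.435) and Ighv1-18 had 8 and 1 (0.0870, 0.00196 to 0.649). Ighv3-6 had 3 and 12 (2.78, 0.751 to 15.4), Ighv1-80 3 and 9 (2.09, 0.521 to 11.99) and Ighv2-2 2 and 7 (2.44, 0.464 to 24.0). Ighv1-69 had no UMI at day 0 and 6 at day 14, with a lower limit of the ratio of 0.820. As a share of Ighv UMIs the ratios were 4.48 (Ighv3-6), 3.36 (Ighv1-80) and 3.92 (Ighv2-2). Ighv5-17 had 16 and 12 UMIs (0.522, 0.225 to 1.18) and Ighv1-26 had 16 and 11 (0.479, 0.201 to 1.10), and both intervals include 1.

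Genes seen in the high cells of only 1 day were also seen more in the low cells of that day. The 25 genes seen in high cells of day 0 only had 269 low cell UMIs at day 0 and 62 at day 14 (34.0 and 5.45 CPM), 6.23-fold lower (4.71 to 8.35), and 24 of the 25 were higher at day 0. The 17 genes seen in high cells of day 14 only had 63 and 132 low cell UMIs (7.96 and 11.6 CPM), a ratio of 1.46 (1.07 to 2.00), with 12 higher at day 14, 4 at day 0 and 1 equal. The 28 genes seen in no high cell had 124 and 137 UMIs, a ratio of 0.769 (0.599 to 0.989), with 16 higher at day 0 and 12 at day 14. The 8 genes seen in high cells of both days had 86 and 43 (ratio 0.348, 0.236 to 0.508), with 6 higher at day 0, 1 at day 14 and 1 equal. So genes seen in high cells of day 0 only were lower at day 14 in low cells, those of day 14 only were higher, and those of neither lay between. Over all Igkv and Ighv genes, without the minimum of 5 UMIs, the first and second of these ratios were 0.162 (0.121 to 0.214) and 1.51 (1.12 to 2.07). With cells divided at 10%, the first and second of these ratios were 0.154 (0.114 to 0.205) and 1.43 (1.05 to 1.96). Counting a gene as seen with at least 3 UMIs gave 0.170 and 1.29, the second with an interval that includes 1 (0.956 to 1.76). Both Igkv (0.170 and 1.44) and Ighv (0.148 and 1.48) genes showed it, although the second ratio of each family alone has an interval that includes 1.

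Rank correlations over the 78 genes describe the same pattern. Spearman's rho was 0.60 between low and high cell UMIs of day 0 and 0.29 between those of day 14. Across days it was -0.14 between low cells, -0.23 between high cells, -0.40 between high cells of day 0 and low cells of day 14, and -0.16 between low cells of day 0 and high cells of day 14. Cells of 1 day share a library, and a gene enters the set by the sum of these same UMIs, which favours negative values across days. Pearson's r was 0.13 and 0.36 for the pairs within a day, as single cells with very many UMIs weigh on it: Igkv6-15, with 164 UMIs in 1 high cell of day 0, had 3 and 4 UMIs in low cells, and Ighv2-5, with 138 in 1 high cell of day 14, had 2 and 4.

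**Figure D3:**
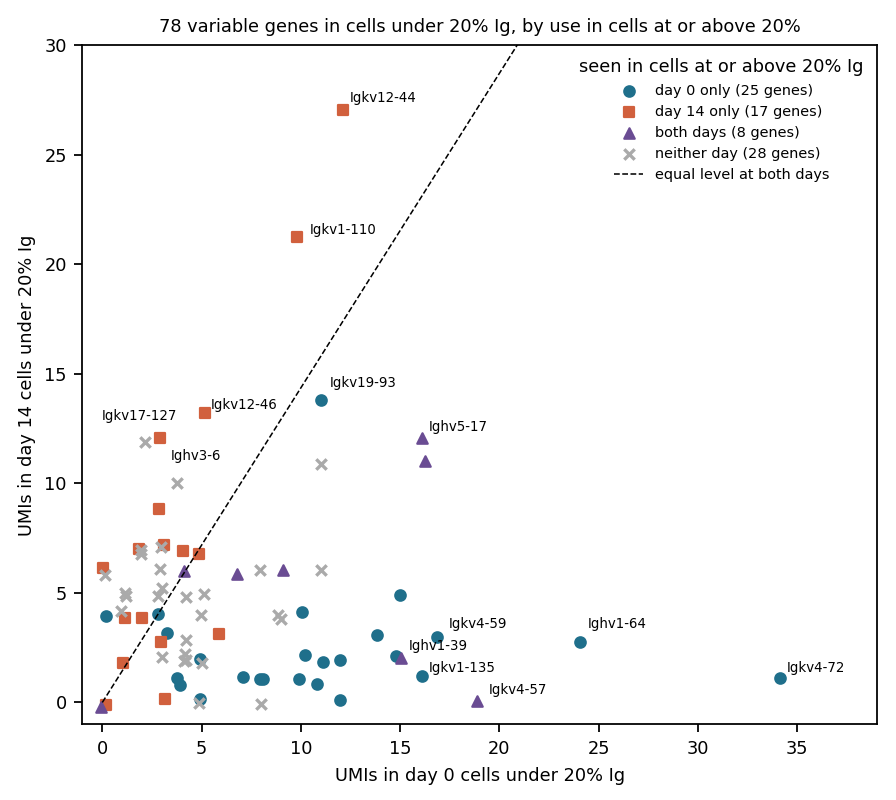
UMIs of each of the 78 genes in low cells of day 0 (x axis) and day 14 (y axis), with symbols for the days on which the gene was seen in high cells and points shifted by up to 0.25 UMIs to separate ties; the dashed line marks equal CPM. Genes of day 0 high cells lie along the x axis (Igkv4-72 at 34 and 1), and Igkv12-44 and Igkv1-110 lead those of day 14.

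Subgroups gather variable genes of similar sequence. In low cells, intervals of the shares of the kappa subgroups Igkv4, Igkv5 and Igkv12 lay apart between the days, and those of the largest heavy subgroups overlapped. Igkv4 genes gave 80 of 321 Igkv UMIs at day 0 (24.9%, 20.3 to 30.03) and 11 of 201 at day 14 (5.47%). Igkv12 genes gave 29 (9.03%, 6.13 to 12.7) and 57 (28.4%). Igkv5 genes gave 18 UMIs (5.61%, 3.36 to 8.72) and 1 (0.498%, 0.0126 to 2.74), and Igkv17 genes 10 (3.12%) and 18 (8.96%). Igkv1 genes stood at 13.4% on both days, although within them Igkv1-135 and Igkv1-117 were seen mostly at day 0 and Igkv1-110 mostly at day 14. Ighv1, the largest heavy subgroup with 26 of the 44 genes, gave 61.9% and 58.1% of Ighv UMIs, and Ighv5 gave 13.7% and 12.1%. Ighv3 gave 1.44% and 5.65%.

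**Figure D4:**
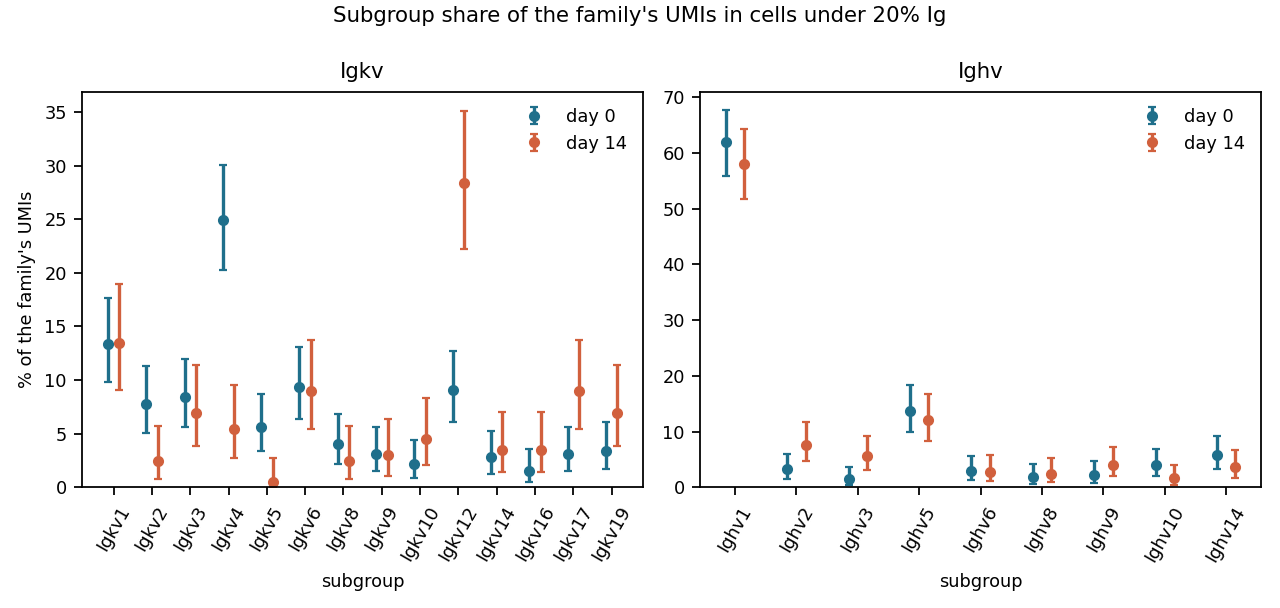
Share of the Igkv (left) and Ighv (right) UMIs of low cells that each subgroup gave at day 0 and day 14, for subgroups with at least 10 UMIs over both days; bars are exact 95% binomial intervals. The intervals of Igkv4 (24.9% and 5.47%), Igkv5 (5.61% and 0.498%) and Igkv12 (9.03% and 28.4%) lie apart between the days, and those of Ighv1 overlap.

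Against all genes of the low cells, few variable genes had enough UMIs to be counted. A level at least 1.5-fold higher at day 14 was found for 1.28% and one at least 1.5-fold lower for 4.89% of the 8892 genes that reached 50 UMIs, and no variable gene reached 50 UMIs in low cells. From 20 UMIs on there were 10038 genes, 2.17% higher and 7.51% lower. The 10 variable genes among these gave 1 higher (Igkv12-44), 6 lower (Igkv4-72, Igkv4-59, Ighv1-64, Ighv1-81, Ighv1-26 and Ighv5-17) and 3 in between. All 10 had fewer than 50 UMIs, whereas 8892 of the 10038 genes reached 50. Of the 754 lower genes 435 reached 50 UMIs, as did 114 of the 218 higher ones. These shares are thus not matched for UMI number, and genes with few UMIs pass 1.5-fold more often. Their median log2 ratio was -1.0, beside -0.10 over all 10038 genes. In high cells the background was wide: 22.6% of the 1012 genes that reached 50 UMIs stood higher and 15.4% lower, as did 22.4% and 17.5% of the 2293 that reached 20. There, 2 of 3 variable genes with 50 UMIs were higher (Igkv1-110 and Ighv2-5) and 1 lower (Igkv6-15). With 20 UMIs, 6 of 8 were higher and 2 lower (Igkv6-15 and Igkv4-59).

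Most counted genes of the machinery that assembles and transcribes these genes lay within 1.5-fold between the days in low cells. Of 18 genes for receptor assembly and diversification, 13 had at least 50 UMIs, none at least 1.5-fold higher and 2 lower. One of these, Prkdc, a kinase of DNA end joining, had 49 and 44 UMIs (ratio 0.625, 0.406 to 0.959). Rag1 and Rag2, which cut the variable segments in developing B cells, had no UMI on either day. All 12 genes for immunoglobulin gene transcription lay within 1.5-fold, such as Ebf1, a B lineage transcription factor, at 1479 and 1506 CPM. Among 12 counted constant and lambda genes, Ighg3 was higher (29 and 78 UMIs, ratio 1.87, 1.21 to 2.98), and Igha (0.653), Iglc1 (0.664), Iglc3 (0.648) and Iglv1 (0.586) were lower. Jchain was lower too (0.594, 0.546 to 0.645). Other plasma cell transcripts lay within 1.5-fold in low cells: Igkc at 0.921 (0.912 to 0.931), Mzb1 at 0.930 (0.889 to 0.972) and Xbp1 at 0.968 (0.866 to 1.08).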

How the data were processed

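Colonic B cells of 2 libraries, 1 per day, were measured, per the labels' protocols, with version 2 of the 10x 3′ kit, a chemistry that reads transcripts near their 3′ end and so seldom covers variable segments. The deposited counts are UMIs per gene and barcode; per the file headers they were made by Cell Ranger 3.0.1, and on mm10 per the submitters' processing notes. How reads that match several genes were treated, the strand setting and the annotation are stated nowhere in the labels or headers. The natural log tables that the authors deposited, with Seurat 3.0 named in the submitters' processing notes, served only to define the cells and left out 86 of 3376 and 88 of 4780 barcodes by a filter that is not stated. Every value was computed from the counts, and 0 sample columns were left unused. No doublets were removed.

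Genes, lists and markers were chosen with earlier results of these data known. Immunoglobulin UMIs cover variable, diversity, joining and constant symbols. Named genes of low cells are, per family, the 10 most used and 4 in each direction. These 4 had the highest lower, or the lowest upper, limit of the day 14 over day 0 odds of use. The odds came from these same UMIs. Named genes of high cells are, per family, the 5 most used and those over 10% of a day's high cell UMIs of the family. Because few low cells held 3 UMIs, low cells were ranked without a minimum, a choice made after seeing the data, as was the definition of T cell barcodes (at least 3 UMIs of 8 T cell markers and at most 10 of mature B cell markers). Shares have exact Clopper-Pearson, sums exact Poisson and ratios exact conditional 95% intervals, for counting error only. In fold values with a count of 0, a floor of 3 counts was used. CPM divides by UMIs other than immunoglobulin and mitochondrial ones, 7916950 and 11372512 in low cells. TMM (edgeR 4.0.16), median-of-ratios and family UMI scalings, other UMI minimums, divisions at 10% and 40%, thinning and removal of cells over 2 times the median UMIs were alternatives. Ratios and assignments were tested on simulated data. Of 31053 gene IDs, 30934 (99.6%) were in GENCODE M21. Promoter and recombination signal sequences were not analysed here. The values of 1 gene of the listed machinery are not reported here. Python 3.11.15, NumPy 2.4.6, SciPy 1.17.1, pandas 2.3.3, Biopython 1.88 and matplotlib 3.10.9 were used.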

Additional observations from a re-analysis of the deposited data

How the results depend on the processing

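No paired analysis was possible because each day has 1 library. The gene set held 153 genes with 1 UMI and 29 with 20. Thinning to 1000 UMIs lowered the share of cells with an Igkv UMI to 3.47% and 1.80% of low cells and 25% and 33.3% of high cells at day 0 and day 14, and for Ighv to 3.28%, 2.41%, 29.2% and 25.9%. With 1 UMI to assign, Igkv was assigned in 8.33% and 3.92% of low cells and Ighv in 7.56% and 5.04%, and at day 14 in 85.2% and 70.4% of high cells. With 2 UMIs, Igkv was assigned in 0.306% of low cells of day 0, against 0.0306% with 3. With 5 UMIs the low cell share was 0% for Igkv on both days and for Ighv at day 14, and Ighv was assigned in 41.7% of high cells of day 0. Dividing at 10%, or leaving out cells over 2 times the median UMIs, gave 0% for Igkv in low cells on both days, and dividing at 40% gave 0.171% at day 14 and left 16 high cells there. The effective number in high cells moved to 45 (Igkv) and 15 (Ighv) at day 0 with 5 UMIs, and to 8.43 and 15.5 at day 14 with 1 UMI. With 5 UMIs, 20.8% of high cells of day 0 were assigned in both families, and 0% of kappa-assigned cells of day 14 had a second Igkv gene. With 20 UMIs in place of 50 for a counted gene, 1 variable gene was at least 1.5-fold higher and 6 lower in low cells, in place of 0 and 0; the 1 became 2 with TMM or median-of-ratios scaling or a division at 40%, 4 over family UMIs and 0 without cells of high UMI number. The cause of these moves was not tested, except that a higher UMI minimum assigns fewer cells by construction. The other 116 values of main results and 106 of single genes and counts kept their direction and stayed within their counting interval or 1.5 times. Over family UMIs Igkv12-44 had a ratio of 3.59. In low cells 1 UMI made up nearly every entry.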

Other observations

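Variable genes known for their use by B-1 cells, an innate-like B cell lineage, were almost unseen. Ighv11-2 had 2 UMIs at day 0 in low cells, Ighv7-1, Igkv14-126 and Igkv4-91 had 1 UMI each at day 14, and Ighv12-3 and Igkv7-33 had none. None of the 6 was found in a high cell.

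Low cells with at least 3 UMIs of a family were few, 9 in all. Of these, 5 had between 12.8% and 18.2% immunoglobulin UMIs and between 246 and 510 plasma cell marker UMIs, with Igha as the leading heavy constant gene. Their variable genes were Igkv14-111 and Ighv1-64 at day 0, and Ighv2-9-1, Igkv9-120 and Igkv16-104 (with 1 UMI of Igkv2-109) at day 14. The other 4 had between 0.419% and 2.17% immunoglobulin UMIs, and in 2 of them 3 different Igkv genes had 1 UMI each.

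Among the barcodes left out of the log tables, 4 of day 0 and none of day 14 held at least 20% immunoglobulin UMIs.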
